A study of Mus musculus with 8 samples.

Results

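The 48 genes described here encode proteins of mitosis and chromosome segregation, from the kinases and cyclins that start mitosis to the proteins that part the daughter cells. They were chosen by name and found on the arrays through the transcript accession of each probe. All 48 were among the 25353 genes and unnamed transcripts tested, and all 48 were well above background on each of the 8 arrays. RNA came from TEC71, an immortalized line derived from mouse medullary thymic epithelium, the stroma that shows self antigens to maturing T cells. The tested cells carry a T1211A change in Gtf2i, the gene of the transcription factor TFII-I, placed with a Cas9 nickase. They were measured as knockin#1 on 3 arrays and as knockin#3 on 2 arrays, and the control was measured on 3 arrays. Control cells had received the nickase with a single guide RNA, so they passed through transfection but carry no knock-in. Each knock-in group is 1 clone, and nothing in the labels says that the arrays of a group came from separate cultures, so p-values measure only the spread between these arrays. The arrays read RNA levels and do not read the edited base.

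During mitosis the kinase Cdk1, bound to a B-type cyclin and switched on by Cdc25 phosphatases, drives the cell from the end of its growth phase into division. Condensins then compact the chromosomes, kinetochores join them to the spindle, and a checkpoint holds separation back until all are attached, after which the anaphase-promoting complex and separase release the sister chromatids. Many of these genes are transcribed together shortly before division, through promoter elements known as the CCAAT box and the cell cycle genes homology region. In a culture such as TEC71 their RNA comes mostly from cells close to division, so in bulk RNA fewer such cells and less RNA per cell cannot be told apart.

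A level below is the log2 signal of 1 probe minus the 75th percentile of its array on the same scale, and levels are compared between arrays for 1 probe at a time. Each array had 55.3% to 59.3% of its probes well above background, and no spot was saturated. Arrays correlated at 0.993 to 0.995 within a group, at 0.989 to 0.994 between the clones and at 0.964 to 0.970 between knock-in and control. On the slide, row 1 held the 3 controls and knockin#1 replicate 1, while row 2 held the other knock-in arrays, so knockin#3 shares no row with a control. Knockin#1 replicate 1 had a brightest spike-in signal of 3238, against 18804 to 34228 on the other arrays. Of 20 thymic epithelium markers 14 were above background on all arrays and 5 (Fezf2, Cd40, Psmb11, Enpep and Pax1) on none. Their summed linear signal, in multiples of the 75th percentile, was 364 to 416 in knockin#1, 385 to 427 in knockin#3 and 402 to 519 in the control. Of the 14 tested, 3 rose and 4 fell in both clones, with Cldn4 among the higher and Cd80 among the lower. That is 21.4% and 28.6% of the 14, against 11.3% and 12.2% of all tested. Of 11 fibroblast markers 4 were above background on all arrays, with Pdgfrb, Dcn, Lum, Thy1 and Fap on none. The fibroblast sum was 29.3 to 32.5 in knockin#1, 25 to 33.1 in knockin#3 and 59.5 to 84.7 in the control. Of the 4 tested, Pdgfra, Vim and S100a4 fell in both clones, which is 75%, against 12.2% of all tested. The other tested marker passed in neither clone, and in knockin#3 it lay above zero (0.14). Of 11 leukocyte markers 5 were tested. Limma passed 0 in either clone, against 31.1% and 30.2% of all tested, with 0 and 1 at an unadjusted p under 0.05. The leukocyte sums were 7.57 to 11.1, 10.0 to 10.3 and 7.33 to 10.9 in knockin#1, knockin#3 and control. Cd3g, Cd8a, Itgax, Adgre1 and Lyz2 were above background on no array. Of 7 endothelial markers 1 was tested and it did not pass. The part of cell makeup in the mitosis values was not tested.

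Against the control, more mitosis genes fell than rose in both clones. In knockin#1 limma's test passed 20 of the 48 genes at an adjusted p under 0.05, with 19 lower and 1 higher. Over all 25353 tested, 31.1% passed, 16.5% lower and 14.7% higher, so the lower share among mitosis genes was 39.6%. In knockin#3 it passed 12 of 48, which is 25%, against 30.2% of all tested. There 8 mitosis genes fell and 4 rose, which is 16.7% and 8.33%, against 17% and 13.3% of all tested. Ccnb2, Cdc25a, Cdc25b, Kif4, Prc1, Mki67, Ncapd2 and Ncapg fell in both clones, and Tpx2 rose in both. These 9 genes are 18.8% of the 48, against 23.5% of all tested that passed in both with the same sign, and both counts use the same 3 control arrays. The 8 that fell are 16.7% of the 48, against 12.2% of all tested. The 1 that rose is 2.08%, against 11.3% of all tested. Knockin#1 thus had more mitosis genes below the control than the background share, while the knockin#3 counts lay near or under the background.

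The middle of the 48 differences shows the same order. The median log2 difference was -0.33 in knockin#1, against -0.05 over all tested. There 38 of the 48 genes lay below zero, against 13961 of all 25353 tested. In knockin#3 the median was -0.11, against -0.04 over all tested, and 33 of 48 lay below zero, against 13568 of all 25353. The median level of the 48 genes on each array was 3.39, 3.34 and 3.40 in knockin#1, 3.45 and 3.50 in knockin#3 and 3.73, 3.75 and 3.66 in the control. No knock-in array reached the lowest control array. All 3 knockin#1 arrays lay below all 3 controls for 31 genes, against 25.3% of all tested, and above them for 4 genes, against 21.2% of all tested. Both knockin#3 arrays lay below all controls for 17 genes, against 30.4% of all tested, and above them for 7, against 25.3% of all tested. The count of 20 in knockin#1 fell to 13 without control 1 and to 13 without control 2, which is 27.1% of the 48 in each. Over all tested 24.5% and 25.3% passed there, against 31.1% with all arrays. In knockin#3 the count of 12 fell to 8 without control 2, which is 16.7%, against 25.2% of all tested. Fewer passed without knockin#3 replicate 2, among the 48 and over all tested, and the count of 9 in both clones also fell. That fit leaves 1 knockin#3 array, and its knockin#3 median was -0.15, against -0.06 over all tested.

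**Figure D1:**
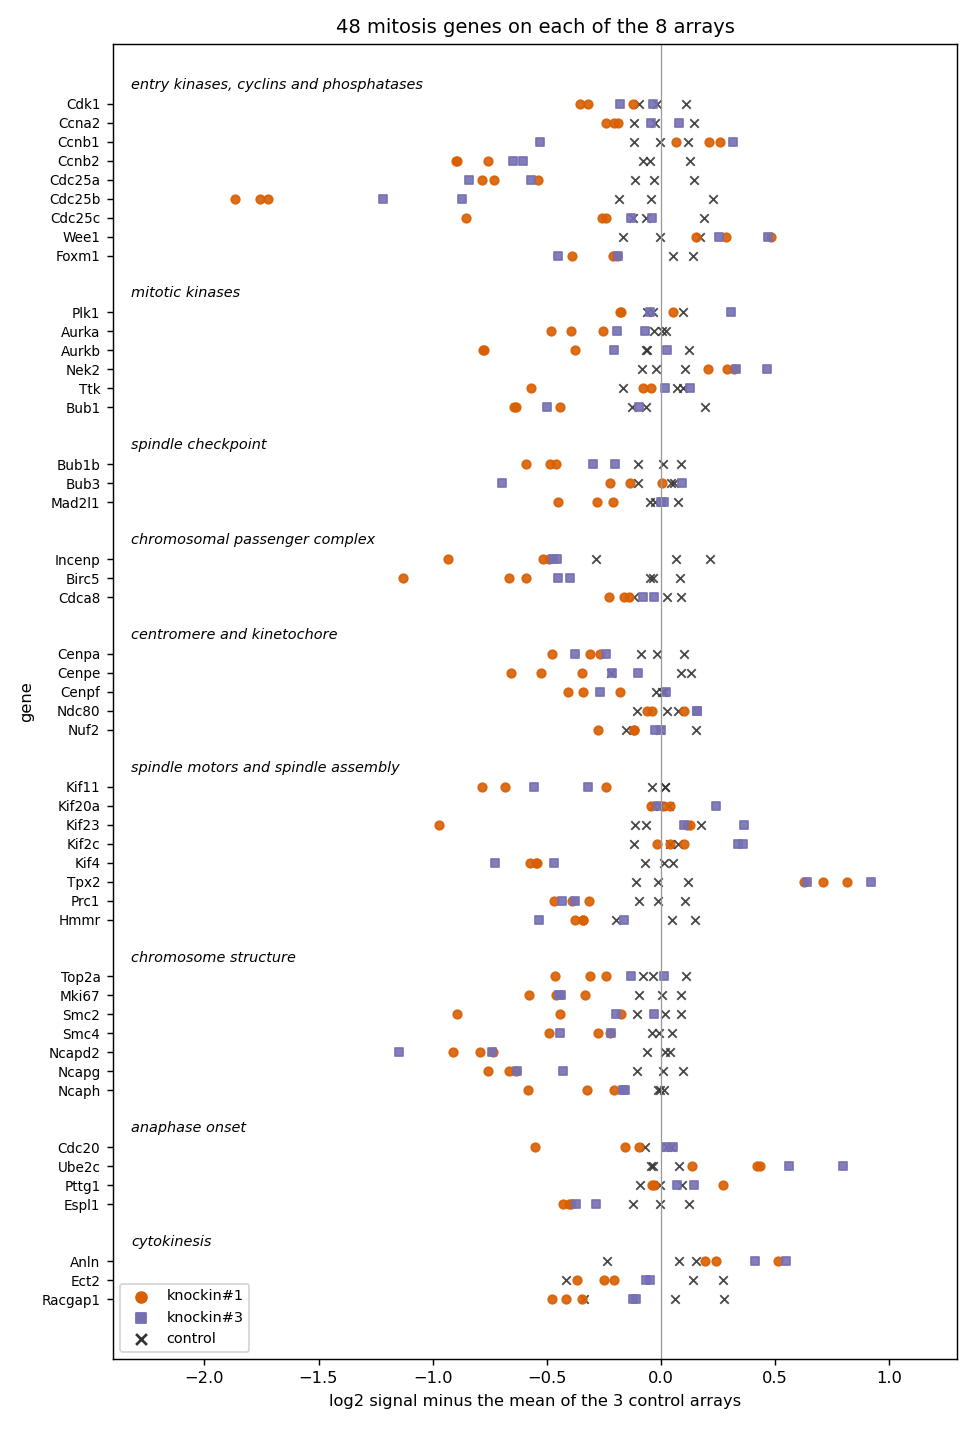
The log2 signal of each of the 48 genes on each of the 8 arrays, minus the mean of the 3 control arrays, with genes grouped by role. Points are single arrays of knockin#1, knockin#3 and control. Cdc25b lies farthest below zero, and Tpx2 lies above zero on all 5 knock-in arrays.

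**Figure D2:**
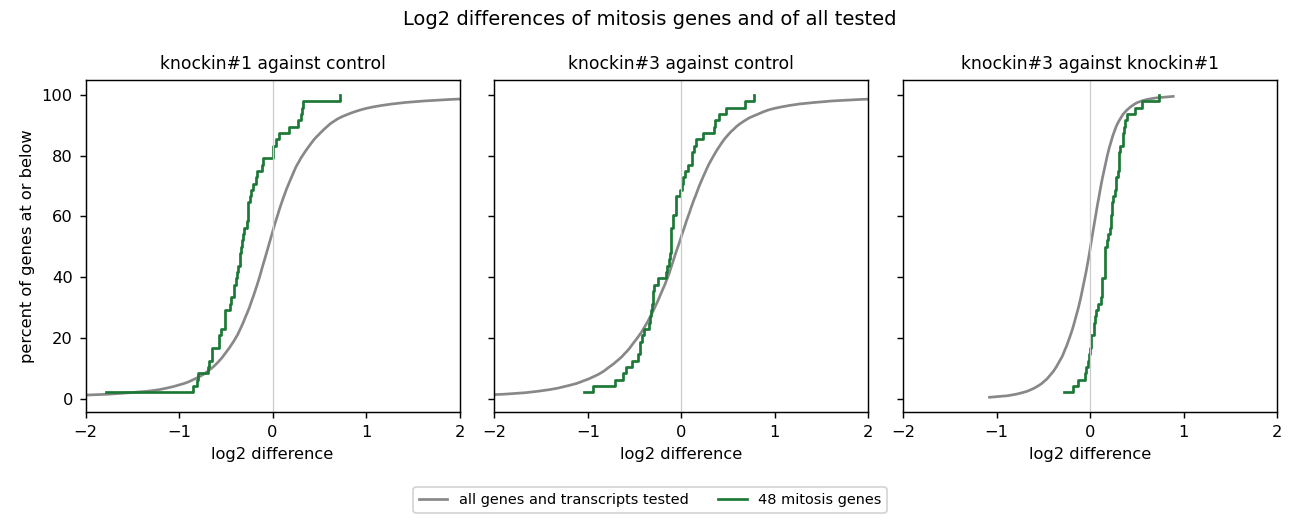
Cumulative percent of genes (vertical axis) by log2 difference (horizontal axis) for the 48 mitosis genes and for all 25353 tested, in knockin#1 against control, knockin#3 against control and knockin#3 against knockin#1. The axis ends at 2 log2 on either side and the curve of all tested goes on beyond it. The mitosis curve lies left of the curve of all tested over most of its course in knockin#1 (medians -0.33 and -0.05), and right of it between the clones (0.17 and 0.00).

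The slide row moved with the groups, and most calls ended when it entered the fit. With the row as a block, the knockin#1 difference rests on replicate 1, the knockin#1 array that shares a row with the controls. It is also the array with a brightest spike-in signal of 3238, against 18804 to 34228 on the others. The fit with the row block passed 9 of the 48 genes in knockin#1, 8 lower and 1 higher. Of all 25353 tested it passed 2287 lower and 2062 higher in knockin#1. In knockin#3 it passed 1 of the 48, which was lower. The 9 and the 1 are 18.8% and 2.08% of the 48, against 17.2% and 8.16% of all tested in either direction. The median of the 48 was -0.35 in knockin#1 and -0.21 in knockin#3, so the middle difference was no smaller than without the block while fewer genes passed. Within row 1 alone, a single knockin#1 array is set against the 3 controls and is assumed to vary as they do. There the median of the 48 was -0.35, against -0.04 over all tested, and the differences are those of the block fit. Of the 9 that passed in knockin#1 with the row block, Smc2 and Cdc20 did not pass in the fit without it. The knockin#3 differences with the block rest on the row difference seen among the knockin#1 arrays, 1 in row 1 and 2 in row 2, since knockin#3 and the control share no row.

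Promoter sequence is shown for the 8 genes that fell in both clones, as the genes the shared result turns on, and for Ube2c, which rose in knockin#3. Nek2 and Kif2c also rose there and are not shown. In the 150 bases before the start, Nek2 has 1 CCAAT box only and Kif2c 1 homology region only. RefSeq promoters of GRCm38.p6 matched 39 of the 48 genes, and Ccna2, Cdc25c, Wee1, Foxm1, Aurkb, Incenp, Kif20a, Tpx2 and Smc4 were not matched. Each line gives the 150 bases before the transcript start, 5′ to 3′ on the gene's strand. On the plus strand these are Cdc25a at chr9:109875429-109875578, Cdc25b at chr2:131186798-131186947, Kif4 at chrX:100625915-100626064, Prc1 at chr7:80294301-80294450, Ncapg at chr5:45669775-45669924 and Ube2c at chr2:164769779-164769928. On the minus strand they are Ccnb2 at chr9:70421555-70421704, Mki67 at chr7:135716380-135716529 and Ncapd2 at chr6:125191587-125191736. Capitals mark the CCAAT box (CCAAT or its reverse complement ATTGG), the cell cycle genes homology region (TTTGAA or TTCAAA) and the E2F-type site (TTTGGCGC or GCGCCAAA).
Ccnb2: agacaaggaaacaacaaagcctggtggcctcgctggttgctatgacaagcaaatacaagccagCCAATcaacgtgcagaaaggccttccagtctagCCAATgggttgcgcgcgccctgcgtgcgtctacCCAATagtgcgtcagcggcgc
Cdc25a: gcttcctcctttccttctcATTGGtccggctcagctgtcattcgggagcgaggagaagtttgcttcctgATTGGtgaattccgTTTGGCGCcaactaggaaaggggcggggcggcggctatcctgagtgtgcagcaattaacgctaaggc
Cdc25b: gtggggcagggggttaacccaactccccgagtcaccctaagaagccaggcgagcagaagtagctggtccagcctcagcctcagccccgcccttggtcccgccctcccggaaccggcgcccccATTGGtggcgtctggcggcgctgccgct
Kif4: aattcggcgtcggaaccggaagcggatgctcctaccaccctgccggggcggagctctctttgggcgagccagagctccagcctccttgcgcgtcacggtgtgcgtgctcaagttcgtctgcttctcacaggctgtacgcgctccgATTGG
Prc1: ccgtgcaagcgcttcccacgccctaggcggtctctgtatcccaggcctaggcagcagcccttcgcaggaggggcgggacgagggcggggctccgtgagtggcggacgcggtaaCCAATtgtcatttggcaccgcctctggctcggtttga
Mki67: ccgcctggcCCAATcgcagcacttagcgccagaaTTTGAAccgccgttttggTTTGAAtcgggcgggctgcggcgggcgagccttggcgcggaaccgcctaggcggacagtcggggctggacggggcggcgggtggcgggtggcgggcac
Ncapd2: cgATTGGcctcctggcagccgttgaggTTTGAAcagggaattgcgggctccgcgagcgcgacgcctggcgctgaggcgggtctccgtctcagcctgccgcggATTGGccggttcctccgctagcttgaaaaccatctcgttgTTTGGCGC
Ncapg: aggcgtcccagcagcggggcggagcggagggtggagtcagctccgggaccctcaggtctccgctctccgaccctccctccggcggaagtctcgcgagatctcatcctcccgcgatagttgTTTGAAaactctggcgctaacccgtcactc
Ube2c: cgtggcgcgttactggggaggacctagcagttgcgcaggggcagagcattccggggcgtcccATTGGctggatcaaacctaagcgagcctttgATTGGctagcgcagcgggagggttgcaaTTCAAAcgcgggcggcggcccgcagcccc

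In the 250 bases before the start, on both strands, a CCAAT box stood in 31 of the 39 mitosis promoters (79.5%), against 34.5% of the 27025 genes in the table. The homology region stood in 14 of 39 (35.9%), against 16.3% of all, and both motifs together in 13 of 39 (33.3%), against 5.73% of all. No matches of different motifs overlapped. Of the promoters of genes that fell in knockin#1, 15 of 17 held a CCAAT box, and so did 14 of the 19 that passed in neither clone. The homology region was in 6 of those 17 and in 6 of those 19. Of the 3 genes in the table that rose in knockin#3 (Nek2, Kif2c and Ube2c), 2 held a CCAAT box and 2 the homology region. TTTGGCGC was found in 2 promoters, those of Cdc25a and Ncapd2, against 0.437% of all, and TTTCCCGC in 0 of 39, against 0.929% of all. These are matches of letters and not measured binding sites.

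**Figure D3:**
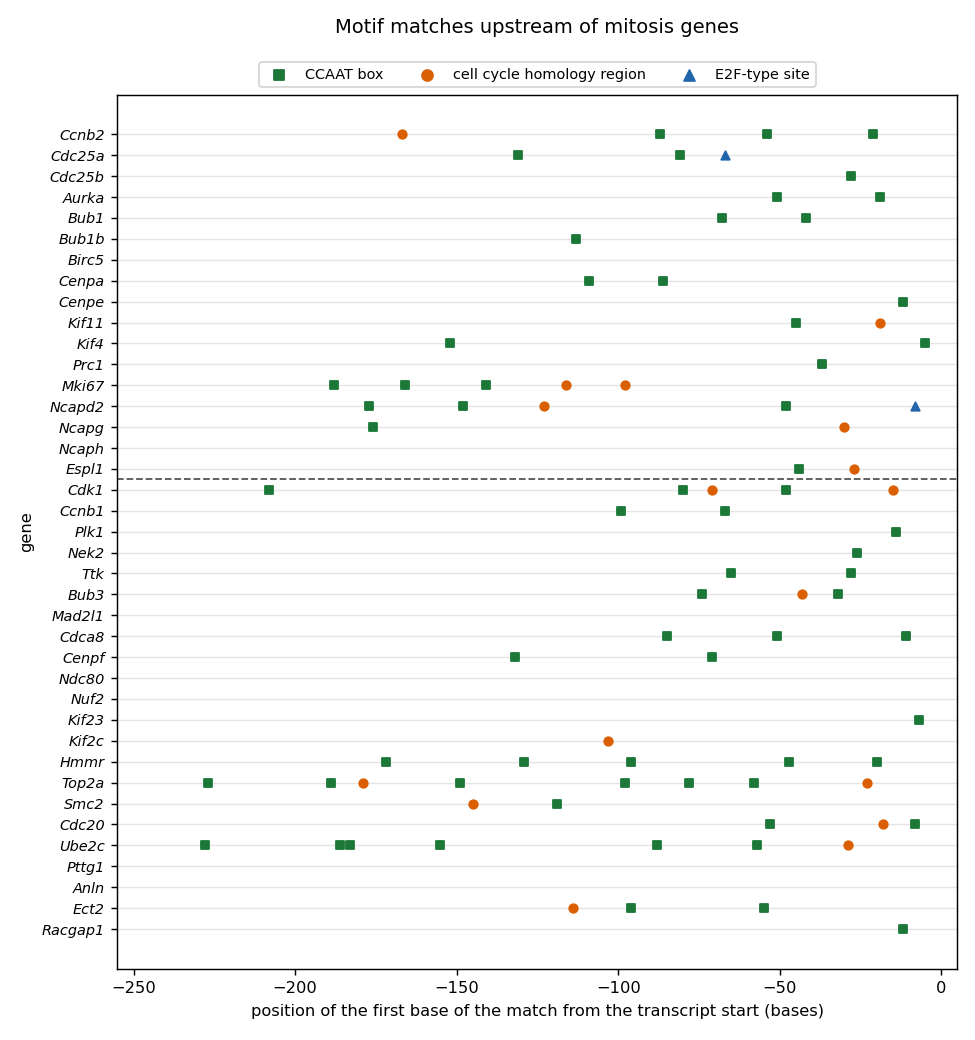
Position of each motif match in bases from the transcript start (horizontal axis) for the 39 genes with a promoter in the table (rows). Genes above the dashed line fell in knockin#1 and the others stand below it. CCAAT boxes occur on both sides of the line, in 15 of 17 promoters above it, and the E2F-type site occurs in 2.

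Among the 9 genes for entry into mitosis, 3 fell in both clones and 6 passed in neither. The 3 are 33.3% of the 9, against 12.2% of all tested that fell in both. Cdc25b, a phosphatase that switches on Cdk1 at the centrosome, had the largest difference of the 48 genes in either clone. Its level was -0.25, -0.14 and -0.11 on the knockin#1 arrays, 0.40 and 0.74 on the knockin#3 arrays and 1.43, 1.57 and 1.84 on the control arrays. The 3 groups did not overlap, with knockin#3 between the others. The log2 difference was -1.78 in knockin#1 (SE 0.14, adjusted p = 4.39e-05, 3.44-fold lower) and -1.04 in knockin#3 (SE 0.16, adjusted p = 0.00183, 2.06-fold lower). A second Cdc25b probe gave -1.54 and -1.1. Cdc25b was also the gene that kept its call in both clones with the row as a block, at adjusted p = 0.00138 in knockin#1 and 0.0476 in knockin#3. Its promoter window, with 1 CCAAT box close to the start, is among the sequences above.

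Ccnb2 encodes cyclin B2, a partner of Cdk1. It stood at 3.89, 3.89 and 4.03 in knockin#1, at 4.14 and 4.18 in knockin#3 and at 4.74, 4.71 and 4.91 in the control, so every knock-in array was below every control array. The differences were -0.85 in knockin#1 (SE 0.11, adjusted p = 4.91e-04) and -0.63 in knockin#3 (SE 0.12, adjusted p = 0.00471). In the row-block fit it passed in knockin#1 (adjusted p = 0.00853) but not in knockin#3 (-0.70, adjusted p = 0.0882). The window of Ccnb2 holds 3 CCAAT boxes. Cdc25a, a phosphatase that also acts at the start of DNA replication, gave 2.96, 3.01 and 3.21 in knockin#1, 3.18 and 2.90 in knockin#3 and 3.63, 3.89 and 3.71 in the control. Here too the knock-in arrays lay below all controls. The differences were -0.68 (SE 0.13, adjusted p = 0.00425) in knockin#1 and -0.70 (SE 0.14, adjusted p = 0.00686) in knockin#3. The knockin#1 call stayed with the row block (adjusted p = 0.0278) and the knockin#3 call ended (adjusted p = 0.0826), with differences of -0.78 and -0.85. The knockin#3 call also ended without knockin#3 replicate 2 (adjusted p = 0.0552).

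Ccnb1, the other B-type cyclin gene, and the kinase gene Cdk1 itself did not pass. Ccnb1 gave 3.91, 4.10 and 4.05 in knockin#1, 4.16 and 3.32 in knockin#3 and 3.96, 3.73 and 3.84 in the control. The knockin#3 arrays lay on either side of the controls. Its 2 dimmer probes gave 0.45 and 0.48 in knockin#1 and 0.49 and 0.49 in knockin#3, so the probes of Ccnb1 differed in sign in knockin#3. Cdk1 had differences of -0.27 in knockin#1 (adjusted p = 0.117) and -0.11 in knockin#3 (adjusted p = 0.582). Ccna2, encoding cyclin A2, gave -0.21 and 0.02 at its brightest probe and 0.21 and 0.16 at the other. Cdc25c (-0.45 and -0.08), the Cdk1-inhibiting kinase gene Wee1 (0.31 and 0.36) and Foxm1 (-0.26 and -0.32), which encodes a transcription factor for genes of this phase, passed in neither clone. A second Foxm1 probe gave -0.18 in knockin#1 and 0.14 in knockin#3.

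Of the 6 mitotic kinase genes, Aurka, Aurkb and Bub1 fell in knockin#1, Nek2 rose in knockin#3, and Plk1 and Ttk passed in neither. That is 50% lower in knockin#1 and 16.7% higher in knockin#3, against 16.5% and 13.3% of all tested. Aurkb, the kinase of the chromosomal passenger complex, stood at 1.61, 1.6 and 2.00 in knockin#1, 2.18 and 2.41 in knockin#3 and 2.51, 2.32 and 2.32 in the control. Knockin#1 lay below both other groups, while knockin#3 overlapped the control. The difference was -0.64 in knockin#1 (SE 0.14, adjusted p = 0.00969), a call that stayed with the row block (-0.77, adjusted p = 0.0403), and -0.09 in knockin#3 (adjusted p = 0.724). Aurka, the spindle pole kinase, gave 4.73, 4.82 and 4.96 in knockin#1, 5.02 and 5.15 in knockin#3 and 5.18, 5.22 and 5.24 in the control. All knock-in arrays were below the controls, and the difference of -0.38 passed in knockin#1 (SE 0.10, adjusted p = 0.0254). That call ended without any 1 of control 1, 2 or 3 or of knockin#1 replicate 1 or 2 (adjusted p = 0.0562 to 0.0791), and with the row block (-0.48, adjusted p = 0.0636).

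Bub1, a checkpoint kinase of the kinetochore, stood at 1.54, 1.55 and 1.74 in knockin#1, 1.68 and 2.09 in knockin#3 and 2.38, 2.06 and 2.12 in the control. Only knockin#1 lay wholly below the control, with a difference of -0.57 (SE 0.15, adjusted p = 0.0177). The Bub1 call ended without control 1 or knockin#1 replicate 1 or 2 (adjusted p = 0.0549 to 0.0618) and with the row block (-0.64, adjusted p = 0.0847). Nek2, which helps centrosomes part, gave 1.40, 1.48 and 1.51 in knockin#1, 1.52 and 1.66 in knockin#3 and 1.17, 1.11 and 1.29 in the control, so all knock-in arrays lay above the controls. It passed in knockin#3 (0.40, SE 0.12, adjusted p = 0.0327) but not in knockin#1 (0.27, adjusted p = 0.0806). In knockin#3 the call ended without control 1 or 2 or either knockin#3 array (adjusted p = 0.0561 to 0.165) and with the row block (0.30, adjusted p = 0.428). Plk1, which acts from mitotic entry to cytokinesis, had differences of -0.10 and 0.13 in knockin#1 and knockin#3, and the checkpoint kinase gene Ttk had -0.23 and 0.07.

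Of the 3 spindle checkpoint and 3 passenger complex genes, Bub1b, Birc5 and Incenp fell in knockin#1. That is 33.3% and 66.7% of the 2 groups, against 16.5% of all tested that fell. In knockin#3 limma passed 0 of either group, against 30.2% of all tested, with 0 and 2 at an unadjusted p under 0.05. Bub1b, whose product BubR1 restrains the anaphase-promoting complex, stood at 1.56, 1.43 and 1.53 in knockin#1, 1.72 and 1.82 in knockin#3 and 1.92, 2.11 and 2.03 in the control. The groups were ordered without overlap. Its difference was -0.51 in knockin#1 (SE 0.10, adjusted p = 0.00591) and -0.25 in knockin#3 (adjusted p = 0.143). The knockin#1 call of Bub1b held with each array left out and ended with the row block (-0.46, adjusted p = 0.0816). Mad2l1, which encodes Mad2, missed the threshold in knockin#1 (-0.31, adjusted p = 0.0532) and gave 0.01 in knockin#3, and Bub3 gave -0.12 and -0.30.

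Birc5 encodes survivin, which brings the passenger complex to centromeres. It gave 5.69, 5.15 and 5.61 in knockin#1, 5.88 and 5.83 in knockin#3 and 6.24, 6.23 and 6.36 in the control, without overlap of either clone with the control. The difference passed in knockin#1 (-0.80, SE 0.15, adjusted p = 0.00439) and not in knockin#3 (-0.43, adjusted p = 0.0913). Incenp, the scaffold of the same complex, stood at 5.05, 5.08 and 4.63 in knockin#1, 5.11 and 5.09 in knockin#3 and 5.64, 5.78 and 5.28 in the control. Again both clones lay below the control, and knockin#1 passed (-0.65, SE 0.17, adjusted p = 0.0195) while knockin#3 did not (-0.46, adjusted p = 0.0982). The Incenp call ended without control 1, control 2 or knockin#1 replicate 3 (adjusted p = 0.0609 to 0.0680). Neither passed in knockin#1 with the row block, at adjusted p = 0.0863 for Birc5 and 0.204 for Incenp. Cdca8, which encodes borealin, had differences of -0.18 and -0.06 in knockin#1 and knockin#3, and its second probe gave -0.04 and 0.28.

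Among the 5 centromere and kinetochore genes, Cenpe and Cenpa fell in knockin#1, which is 40%, against 16.5% of all tested. In knockin#3 limma passed 0 of the 5, against 30.2% of all tested, with 1 at an unadjusted p under 0.05. Cenpe, a kinetochore motor, gave 3.76, 4.07 and 3.89 in knockin#1, 4.20 and 4.32 in knockin#3 and 4.20, 4.55 and 4.51 in the control. Knockin#1 lay below the control, and knockin#3 overlapped the control. The difference was -0.51 in knockin#1 (SE 0.14, adjusted p = 0.0212) and -0.16 in knockin#3 (adjusted p = 0.479). Its call ended without control 2 or 3 or knockin#1 replicate 1 or 3 (adjusted p = 0.06 to 0.0723) and with the row block (-0.65, adjusted p = 0.0530). Cenpa, the histone H3 variant of centromeres, stood at 2.45, 2.61 and 2.66 in knockin#1, 2.55 and 2.68 in knockin#3 and 2.91, 3.03 and 2.84 in the control. All knock-in arrays were below the controls. The difference passed in knockin#1 (-0.35, SE 0.11, adjusted p = 0.0414), but not without any 1 of the 6 knockin#1 and control arrays (adjusted p = 0.0579 to 0.124) or with the row block (-0.48, adjusted p = 0.0731). Cenpf (-0.31 and -0.12), Ndc80 (0.00 and 0.16) and Nuf2 (-0.17 and -0.01), of which the last 2 form the arm that grips microtubules, passed in neither clone.

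Spindle genes went both ways. Tpx2, which activates Aurora A on the spindle, was the gene that rose in both clones. It gave 4.03, 3.94 and 4.13 in knockin#1, 3.96 and 4.24 in knockin#3 and 3.21, 3.43 and 3.31 in the control, with every knock-in array above every control. The differences were 0.72 in knockin#1 (SE 0.12, adjusted p = 0.00251, 1.65-fold) and 0.78 in knockin#3 (SE 0.14, adjusted p = 0.00330, 1.72-fold). Both calls held with each array left out. Tpx2 passed with the row block in knockin#1 (0.71, adjusted p = 0.0363) and not in knockin#3 (0.77, adjusted p = 0.103).

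Kif4, a chromosome-bound motor, stood at 0.58, 0.58 and 0.55 in knockin#1, 0.40 and 0.66 in knockin#3 and 1.14, 1.18 and 1.06 in the control. All knock-in arrays lay below the controls, with differences of -0.55 in knockin#1 (SE 0.11, adjusted p = 0.00481) and -0.60 in knockin#3 (SE 0.12, adjusted p = 0.00639). Prc1, which bundles microtubules of the central spindle and works with Kif4, gave 3.71, 3.87 and 3.79 in knockin#1, 3.75 and 3.8 in knockin#3 and 4.17, 4.29 and 4.09 in the control. Here as well no knock-in array reached the controls. The differences were -0.39 in knockin#1 (SE 0.10, adjusted p = 0.0211) and -0.40 in knockin#3 (SE 0.12, adjusted p = 0.0297). With the row block neither gene passed in either clone, at differences of -0.54 and -0.58 for Kif4 (adjusted p = 0.0574 and 0.149) and of -0.47 and -0.52 for Prc1 (adjusted p = 0.0740 and 0.164). Prc1 also lost its knockin#1 call without control 1 or 2 or knockin#1 replicate 1 or 3 (adjusted p = 0.0529 to 0.0712), and its knockin#3 call without control 1 or 2 or either knockin#3 array (adjusted p = 0.0635 to 0.114).

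Kif11, the motor that pushes spindle poles apart, stood at 0.97, 0.43 and 0.53 in knockin#1, 0.65 and 0.89 in knockin#3 and 1.23, 1.23 and 1.17 in the control. Both clones lay below the control, and knockin#1 passed (-0.57, SE 0.15, adjusted p = 0.0232) while knockin#3 did not (-0.44, adjusted p = 0.0897). With the row block the Kif11 difference in knockin#1 was -0.24 (adjusted p = 0.360) and in knockin#3 it was 0.05. The call also ended without any 1 of the controls or without knockin#1 replicate 2 or 3 (adjusted p = 0.0553 to 0.0770). Kif2c, which takes microtubule ends apart at centromeres, gave 0.52, 0.47 and 0.59 in knockin#1, 0.82 and 0.85 in knockin#3 and 0.56, 0.52 and 0.37 in the control. Both knockin#3 arrays lay above all others, and the difference from control was 0.35 (SE 0.11, adjusted p = 0.0478). That call ended without any 1 of the 8 arrays (adjusted p = 0.0631 to 0.159) and with the row block (adjusted p = 0.354), and the second Kif2c probe gave -0.29 in knockin#1 and 0.29 in knockin#3. Kif23 spread most within a group, with 2.74, 1.64 and 2.72 in knockin#1, 2.71 and 2.97 in knockin#3 and 2.5, 2.79 and 2.55 in the control, and passed in neither clone. Kif20a (0.00 and 0.11), a motor of late mitosis, and Hmmr (-0.35 and -0.35), which binds spindle microtubules, did not pass either. The dimmer Hmmr probes gave -0.23 and -0.16 in knockin#1 and -0.04 and 0.08 in knockin#3.

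**Figure D4:**
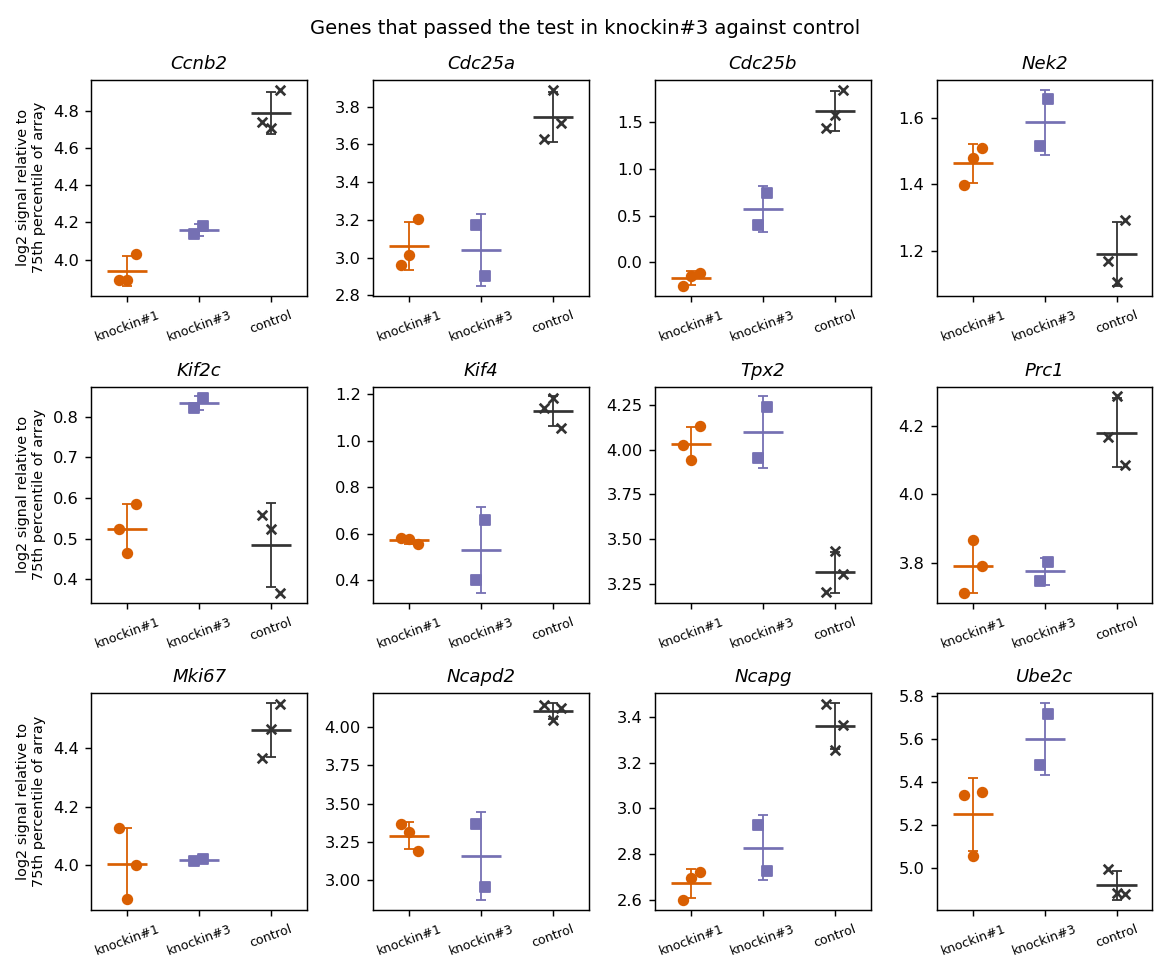
Levels (log2 signal minus that array's 75th percentile) of the 12 genes that passed in knockin#3, on each array of knockin#1, knockin#3 and control. Points are single arrays, wide lines are group means, and whiskers are 1 SD (n = 3, 2 and 3). Each vertical axis has its own range and none starts at 0. Tpx2 is above the control on all 5 knock-in arrays, and for Kif2c both knockin#3 arrays lie above all others.

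All 7 genes of chromosome structure lay below zero in both clones, with medians of -0.46 in knockin#1 and -0.33 in knockin#3, except that in knockin#3 Top2a lay above zero with normexp, median scaling, the mean of all probes, the row block or without knockin#3 replicate 2, and Ncaph with the row block. Over all 25353 tested, 13961 lay below zero in knockin#1 and 13568 in knockin#3. Of the 7 genes 4 fell in knockin#1 (57.1%) and 3 in knockin#3 (42.9%), against 16.5% and 17% of all tested. Ncapd2, a regulatory subunit of condensin I, stood at 3.37, 3.31 and 3.19 in knockin#1, 3.36 and 2.96 in knockin#3 and 4.14, 4.04 and 4.12 in the control. The gap between knock-in and control arrays was wider than the spread within any group. Its differences were -0.81 in knockin#1 (SE 0.13, adjusted p = 0.00173) and -0.94 in knockin#3 (SE 0.14, adjusted p = 0.00167). Ncapg, another condensin I subunit, gave 2.60, 2.69 and 2.72 in knockin#1, 2.93 and 2.73 in knockin#3 and 3.46, 3.25 and 3.37 in the control. No knock-in array overlapped the controls, and the differences were -0.69 in knockin#1 (SE 0.11, adjusted p = 0.00187) and -0.53 in knockin#3 (SE 0.12, adjusted p = 0.0120). With the row block both genes passed in knockin#1 (-0.74, adjusted p = 0.0357 for Ncapd2 and -0.76, adjusted p = 0.0181 for Ncapg). In knockin#3 neither passed, at -0.83 (adjusted p = 0.0925) for Ncapd2 and -0.64 (adjusted p = 0.119) for Ncapg. The Ncapg call in knockin#3 also ended without knockin#3 replicate 2 (adjusted p = 0.0846).

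Ncaph, the kleisin that closes the condensin I ring, stood at 3.58, 3.21 and 3.46 in knockin#1, 3.62 and 3.63 in knockin#3 and 3.8, 3.78 and 3.79 in the control. Both clones were below the tight control values, and knockin#1 passed (-0.37, SE 0.12, adjusted p = 0.0441) while knockin#3 did not (-0.16, adjusted p = 0.407). That call ended without any 1 of the 8 arrays except knockin#1 replicate 1 (adjusted p = 0.0571 to 0.131) and with the row block (-0.20, adjusted p = 0.437). Mki67, whose product Ki-67 coats mitotic chromosomes and marks cycling cells, gave 4.13, 3.88 and 4.0 in knockin#1, 4.01 and 4.02 in knockin#3 and 4.37, 4.47 and 4.55 in the control. The knock-in arrays all lay below the controls, with differences of -0.46 in knockin#1 (SE 0.11, adjusted p = 0.0132) and -0.44 in knockin#3 (SE 0.12, adjusted p = 0.0251). The row block ended both Mki67 calls (-0.33 and -0.26, adjusted p = 0.182 and 0.489), and the knockin#3 call ended without control 2 or 3 or either knockin#3 array (adjusted p = 0.0594 to 0.0920).

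The core condensin ATPases did not pass without the block. Smc2 had differences of -0.50 in knockin#1 (adjusted p = 0.0633) and -0.11 in knockin#3, and Smc4 had -0.33 and -0.33. The dimmer Smc4 probes gave -0.12 and 0.03 in knockin#1 and 0.22 and 0.02 in knockin#3. With the row block Smc2 passed in knockin#1 (-0.89, adjusted p = 0.0137), where replicate 1 gave 2.63 against 3.08 and 3.35 on the other knockin#1 arrays. Top2a, the topoisomerase that untangles sister chromatids, missed the threshold in knockin#1 (-0.34, adjusted p = 0.0507) and gave -0.06 in knockin#3. A second Top2a probe went the other way, at 0.14 in knockin#1 and 0.51 in knockin#3.

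At the onset of anaphase, Espl1 fell in knockin#1 and Ube2c rose in knockin#3. Ube2c, the ubiquitin-conjugating enzyme of the anaphase-promoting complex, gave 5.34, 5.05 and 5.35 in knockin#1, 5.48 and 5.72 in knockin#3 and 5.00, 4.88 and 4.88 in the control. All knock-in arrays lay above the controls, highest in knockin#3, where the difference was 0.68 (SE 0.14, adjusted p = 0.00707). In knockin#1 it was 0.33 (adjusted p = 0.0787). The knockin#3 call ended without knockin#3 replicate 2 (adjusted p = 0.0560) and with the row block (0.82, adjusted p = 0.0876). Espl1 encodes separase, the protease that cuts cohesin. It stood at 3.34, 3.38 and 3.36 in knockin#1, 3.40 and 3.48 in knockin#3 and 3.77, 3.64 and 3.89 in the control. Both clones were below the control, and knockin#1 passed (-0.41, SE 0.10, adjusted p = 0.0178) while knockin#3 did not (-0.33, adjusted p = 0.0652). Its call ended without control 3 or knockin#1 replicate 1 (adjusted p = 0.0501 to 0.0601) and with the row block (-0.43, adjusted p = 0.106). Pttg1, which encodes securin, gave 0.07 and 0.11, and Cdc20, an activator of the complex, gave -0.27 in knockin#1 (adjusted p = 0.181) and 0.04 in knockin#3. Cdc20 passed in knockin#1 with the row block (-0.55, adjusted p = 0.0359), where replicate 1 gave 4.40 against 4.80 and 4.86 on the other knockin#1 arrays. Of the cytokinesis genes Anln missed the threshold in knockin#3 (0.48, adjusted p = 0.0516) and gave 0.32 in knockin#1. Ect2 (-0.27 and -0.06) and Racgap1 (-0.41 and -0.11) passed in neither clone, and a second Ect2 probe gave -0.24 and 0.08.

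**Figure D5:**
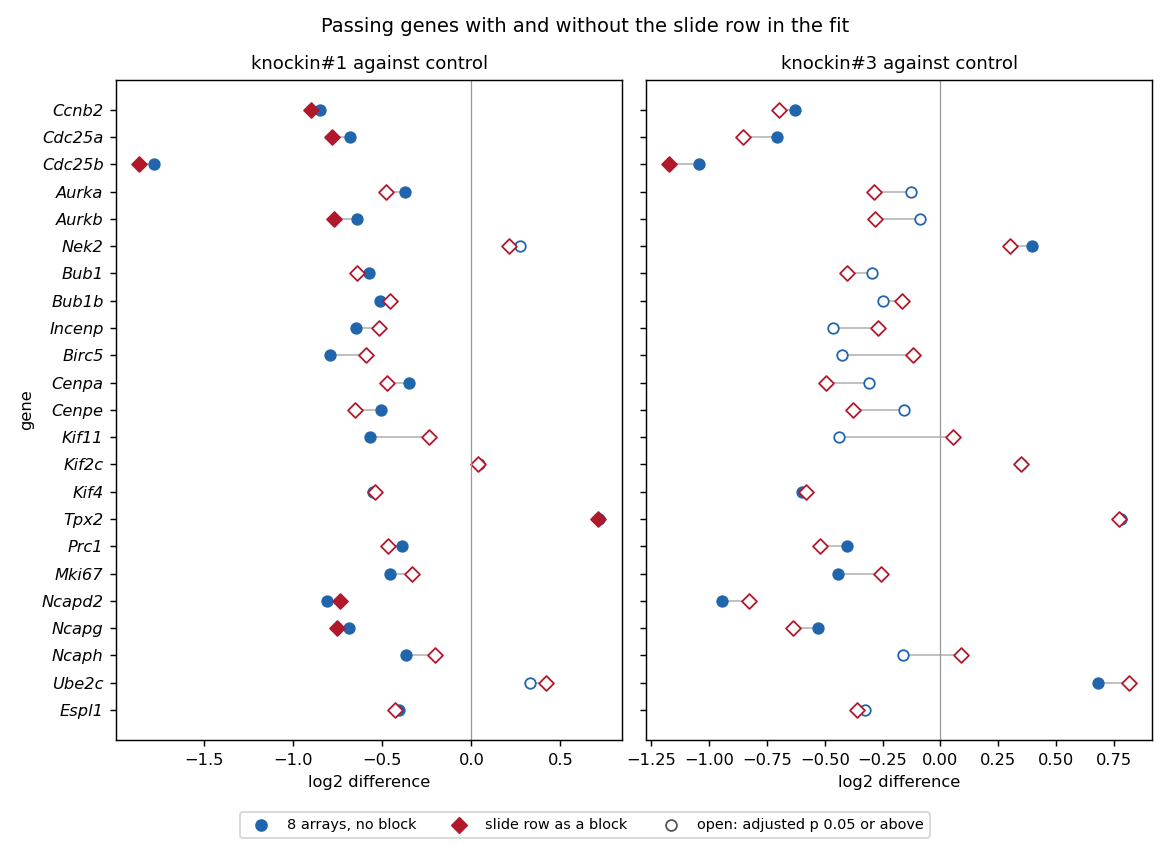
Log2 difference from control (horizontal axis) of the 23 genes that passed in at least 1 clone, from the fit of all 8 arrays (circles) and from the fit with the slide row as a block (diamonds), in knockin#1 and knockin#3. Filled symbols have an adjusted p under 0.05. Filled diamonds number 7 in knockin#1 (Smc2 and Cdc20 are not drawn) and 1 in knockin#3.

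Knockin#3 was then set against knockin#1, to ask whether the clones differ in these genes. Limma's test passed 0 of the 48 genes, against 0.0749% of all tested (0.0434% higher and 0.0316% lower in knockin#3), and 7 had an unadjusted p under 0.05. Even so the knockin#3 value was the higher for 40 of the 48, against 12800 of all 25353 tested. The median log2 difference was 0.17, against 0.00 over all tested. Both knockin#3 arrays lay above all knockin#1 arrays for 25 genes, against 14.1% of all tested, and below them for 0, against 14.4%. In row 2 alone, with 2 arrays of each clone, 38 of 48 were higher in knockin#3, the median was 0.18 and 0 passed, with 0 of all tested. With the row block 0 of the 48 passed as well, against 0.0513% of all tested. The largest difference was that of Cdc25b, at 0.74 (95% interval 0.37 to 1.1, adjusted p = 0.200), with the array values given above. Aurkb followed at 0.56 (0.19 to 0.92, adjusted p = 0.307). The others with an unadjusted p under 0.05 were Ube2c, Cenpe, Mad2l1, Kif2c and Bub1b, at 0.26 to 0.35 log2. For Ncapd2 the interval ran from -0.46 to 0.20, for Tpx2 from -0.25 to 0.37 and for Mki67 from -0.26 to 0.29. A gene that passed against the control in 1 clone and not in the other is therefore not shown to differ between them.

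Further mitosis genes were read from 7 lists of genes outside the 48, with 154 genes tested. Calls in these lists, and in the replication genes below, come from the fit without the row block. They were not read with the block or with an array left out. With the block 17.2% of all tested passed in knockin#1 and 8.16% in knockin#3. Without it, 44 of the 154 fell and 16 rose in knockin#1, with a median of -0.15. In knockin#3 27 fell and 19 rose, with a median of -0.01. In both clones 25 of the 154 fell and 13 rose, against 12.2% and 11.3% of all tested. The lower share was 28.6% in knockin#1, against 16.5% of all tested, and 17.5% in knockin#3, against 17% of all tested. The higher share was 10.4% in knockin#1, against 14.7%, and 12.3% in knockin#3, against 13.3%, so the knockin#3 counts lay near the background. Of 41 other centromere and kinetochore genes 15 fell and 2 rose in knockin#1, and 9 fell and 4 rose in knockin#3. Spc24, a subunit of the Ndc80 complex, had the largest fall among them, at -1.73 in knockin#1 (SE 0.14, adjusted p = 5.00e-05) and -1.46 in knockin#3 (SE 0.16, adjusted p = 3.08e-04). Hjurp, the chaperone that loads Cenpa, fell by 1.11 and 0.94 log2, and the centromere gene Cenph by 0.93 and 0.97 log2. Among 37 spindle and centrosome genes 13 fell (35.1%) and 4 rose (10.8%) in knockin#1, and 6 fell (16.2%) and 4 rose (10.8%) in knockin#3. The centriole genes Sass6 (-0.86 and -0.75) and Stil (-0.70 and -0.48) and the motor gene Kif15 (-0.95 and -0.55) fell in both.

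Cohesin genes and those of other condensins were divided. Of 17, 6 fell and 3 rose in knockin#1, and 5 fell and 4 rose in knockin#3, at a median of 0.00 in each. That is 52.9% called in each clone, against 31.1% and 30.2% of all tested. Smc1a, a core cohesin subunit, fell by 1.02 and 1.00 log2, its partner Smc3 by 0.74 and 0.66 log2, and Cdca5, which encodes the cohesin protector sororin, by 0.53 and 0.65 log2. Of 17 genes of the anaphase-promoting complex and its regulators, 2 rose and 1 fell in knockin#1, and 3 rose and 1 fell in knockin#3. The share called was 17.6% and 23.5%, under that of all tested in each clone. The subunit genes Anapc10 (0.38 and 0.42) and Anapc7 (0.34 and 0.50) rose in both. Fbxo5, which encodes an inhibitor, fell in knockin#1 (-0.62), and in knockin#3 Anapc5 rose (0.60) and Anapc4 fell (-0.40). Of 16 other entry and exit genes 6 fell and 3 rose in knockin#1 (56.25% called), and 4 fell and 2 rose in knockin#3 (37.5%). The phosphatase gene Cdc14a (-0.78 and -0.86) and Depdc1b (-0.68 and -0.79) fell in both and Psrc1 (0.61 and 0.65) rose in both. Of 12 other cytokinesis genes Chmp4c, an ESCRT-III subunit of the abscission checkpoint, rose by 1.27 and 1.44 log2, and the kinase gene Pkn2 fell by 0.43 and 0.41 log2. These 2 are 16.7% of the 12 in each clone, under the share of all tested.

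Few regulators of the transcription of these genes passed. Of 14 tested, 1 rose and 2 fell in knockin#1, and 1 rose and 1 fell in knockin#3. That is 21.4% and 14.3% called, against 31.1% and 30.2% of all tested. Rbl2, whose product p130 is a repressor of cell cycle genes in resting cells, stood at -0.72, -0.85 and -0.66 in knockin#1, -0.76 and -0.76 in knockin#3 and -1.56, -1.26 and -1.41 in the control. All knock-in arrays lay above the controls, and it rose by 0.66 log2 in knockin#1 (SE 0.12, adjusted p = 0.00286) and by 0.64 log2 in knockin#3 (SE 0.13, adjusted p = 0.00635). Tfdp1, the partner of E2F factors, and Nfyc, a subunit of the CCAAT-binding factor NF-Y, fell in knockin#1 (-0.55 and -0.54), and E2f4 fell in knockin#3 (-0.82). For comparison, of 36 DNA replication genes 27 fell and 0 rose in knockin#1 (median -0.63), and 17 fell and 0 rose in knockin#3 (median -0.34), which is 75% and 47.2% lower, against 16.5% and 17% of all tested, with Orc1, Tyms and Pold1 first by the smaller change of the 2 clones. Between the clones 35 of these 36 were higher in knockin#3, against 12800 of all 25353 tested. Limma passed 0 of the 36, against 0.0749% of all tested, with 12 at an unadjusted p under 0.05.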

How the data were processed

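The measured values, as deposited, are Agilent's processed signals (background-corrected intensity, linear) of 1-colour arrays in the 8x60K format. They were made with Agilent Feature Extraction, version 11.5.11 per the submitters' processing notes and 11.5.1.1 per the file headers. Of the 62976 spots on an array 3671 were controls. Those and the 114 to 242 spots flagged per array (population outliers, non-uniform spots) were dropped. Signals were averaged over the spots of a probe, converted to log2 and scaled by subtracting each array's own 75th percentile on that scale. Of 56605 probes 32994 received a symbol through their transcript accession and RefSeq names of GRCm38.p6. A gene with several probes was read by the brightest. Of the 48 mitosis genes 22 had 1 probe and 26 several, 79 probes in all. Of these 26, 4 in knockin#1 and 7 in knockin#3 had probes of both signs.

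A gene entered the test if all arrays of some group had it well above background. Limma 3.58.1 in R 4.3.3 fitted the 3 groups together (two-sided, residual degrees of freedom 5, prior 3.38). Benjamini-Hochberg adjustment ran over all 25353 tested, with a threshold of 0.05, and intervals are 95%. The fit was tested on simulated data. Precision is limited by how few arrays there are. The mitosis genes, the other gene lists, the markers and the tests were chosen with earlier results of these data known. All 48 genes may be named, and from other lists up to 3 genes that passed in both clones with the same sign, by the smaller change, or all passing genes where 5 or fewer passed. Alternatives were normexp background correction (offset 50, on the median spot signal), quantile or median scaling, no filter, a filter requiring 8 arrays, averaging a gene's probes, a robust variance trend, array weights, the slide row as a block, a threshold of 0.01 and each array left out in turn. Fits within 1 slide row were added after seeing the data. Protein sequence was not used here.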

Additional observations from a re-analysis of the deposited data

How the results depend on the processing

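No called value changed sign in any setting. Of the 48 genes 9 changed sign in knockin#3 with the row block (Ccna2, Cdc25c, Mad2l1, Nuf2, Kif11, Top2a, Ncaph, Cdc20 and Pttg1), none of them called there, and 0 to 5 did in other settings against control. Below, percents in brackets are the calls over all tested under the same setting. In knockin#1 the 20 called mitosis genes (31.1%) became 30 with the variance trend (34.1%), 25 with normexp (26.8%) and 25 with the mean of all probes (31.4%). Array weights gave 24 (35.2%), the filter on 8 arrays 23 (32.6%), quantile scaling 22 (31.6%) and median scaling 15 (27.9%). No filter gave 10 (11.9%), the threshold of 0.01 gave 10 (18.6%) and the slide row as a block 9 (17.2%). With 1 array left out 13 to 19 passed (24.5% to 31.3%), with 13 without control 1 and 13 without control 2. The median of -0.33 became -0.28 with normexp and -0.26 with the mean of all probes, and -0.37 to -0.29 with 1 array left out. In knockin#3 the 12 called (30.2%) became 17 with the variance trend (33.9%) and 15 with normexp (24.7%). The other scalings, probe mean, array weights and filter on 8 arrays gave 10 to 13 (27.7% to 31.4%). No filter gave 7 (11.2%), the threshold of 0.01 gave 7 (17.1%) and the slide row as a block 1 (8.16%). With 1 control or knockin#1 array left out 8 to 12 passed (24.0% to 29.4%). Fewer passed without knockin#3 replicate 2, which leaves 1 knockin#3 array. The median of -0.11 became -0.0318 with median scaling and -0.21 with the slide row, and -0.15 to -0.10 with 1 array left out. The 9 called in both clones became 14 with normexp, 15 with the variance trend, 1 with the slide row, and 5 to 11 with 1 array left out. Between the clones 0 passed in every setting, and the median of 0.17 became 0.22 with median scaling and 0.13 to 0.23 with 1 array left out. Ccnb2, Cdc25a, Cdc25b, Aurkb, Tpx2, Ncapd2 and Ncapg kept their calls in knockin#1 in all 19 alternatives run, and Cdc25b in knockin#3 in all 18. The cause of these changes was not tested, except that no filter adjusts over more transcripts and a left-out array leaves fewer samples. No paired analysis was possible because the labels give no replicate numbers shared between groups.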
